A study of Mus musculus with 22 samples.

Results

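In all, 10 genes of macrophages and neutrophils were followed in whole mouse pancreas, out of 21450 gene symbols measured by 30146 probes. The genes were chosen by name with their CPM levels in these same libraries known, and every probe carrying one of the 10 names was kept, which gave 16 probes. Adgre1, Csf1r, Cd68, C1qa, C1qb and Lyz2 represent macrophages and Mpo, S100a8, S100a9 and Cd177 represent neutrophils. The study covered 22 libraries of C57Bl/6 mice made with TempO-Seq, a targeted assay that counts ligated pairs of detector oligonucleotides. Dams were given corn oil alone, the control, or TCDD (a tetrachlorinated dioxin that binds the aryl hydrocarbon receptor) at 20 ng/kg/d by subcutaneous injection 2 times a week, beginning before mating and ending at birth. Pancreas was taken at birth from dams and from 1 daughter and 1 son per litter, so pups were exposed only through the dam. The labels name 4 dams, 3 female pups and 3 male pups for the control, and 4 of each for TCDD. No age of the dams, transgene or mutation is named in the labels.

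Macrophages are resident phagocytes of most organs, seeded before birth from yolk sac and fetal liver and maintained by the receptor that Csf1r encodes. Neutrophils are short-lived granulocytes that are made from myeloid precursors, in the fetus largely in the liver and later in the bone marrow, and reach tissues through the blood. Mpo is transcribed at the promyelocyte step, when the first granules are filled, whereas S100a8, S100a9 and Cd177 are transcribed in later steps and in mature cells. Lyz2 is used by both lineages, so its transcript does not separate them.

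The libraries were read in 2 classes because stage genes contradicted the stage label in 8 of the 22. A library counted as newborn type when its summed count of Afp, a fetal plasma protein, exceeded that of Pnlip, the pancreatic triglyceride lipase, and as adult type otherwise. The newborn type held 14 libraries, 10 labelled pup and 4 labelled dam. The adult type held 8 libraries, 4 labelled dam and 4 labelled pup. Total counts were 11223816 to 34911410, so that a floor of 3 counts stood at 0.0859 to 0.267 CPM (counts-per-million, relative to the total of each library), a limit that covers counting error only. The 20 most abundant probes of each library took 47.1 to 59.6% of counts in the newborn type and 69.8 to 74.7% in the adult type. Acinar transcripts differed likewise, with Cela1, a pancreatic elastase, at a median of 6625 CPM in the newborn type and 40469 CPM in the adult type.

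Because library composition differed between the classes, levels are given on 2 scales. On CPM, 73.8% of the 11366 symbols with a class mean of at least 1 CPM stood higher in every newborn-type library than in any adult-type library, and the median log2 ratio of class means (newborn over adult type) was 1.93. After TMM scaling (trimmed mean of M-values, which sets the bulk of genes level between libraries) that share was 15.1% and the median log2 ratio 0.13. Values per gene depend on how well its probes capture the transcript, so levels are compared between libraries and not between genes. The classes came from Afp and Pnlip and the members were picked with these levels known, so the class comparison of members is a description without a test. In whole tissue, fewer cells of a type and less RNA per cell cannot be told apart.

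RefSeq promoters of build GRCm38.p6 were found for 7 of the 10 genes, and the 250 bases before the transcript start are printed for 3 neutrophil genes, because S100a8 and S100a9 moved together across libraries and Mpo marks the precursor step. Each is written 5′ to 3′ on the strand of the gene, and capitals mark the letters that matched a searched motif on either strand. The motifs were GAGGAAGT for PU.1, TTNNGCAA for C/EBP and TATAAA for the TATA box, and no match of one overlapped another. PU.1 and the C/EBP proteins are transcription factors of the myeloid lineages.
S100a8, chr3:90668821-90669070, plus strand: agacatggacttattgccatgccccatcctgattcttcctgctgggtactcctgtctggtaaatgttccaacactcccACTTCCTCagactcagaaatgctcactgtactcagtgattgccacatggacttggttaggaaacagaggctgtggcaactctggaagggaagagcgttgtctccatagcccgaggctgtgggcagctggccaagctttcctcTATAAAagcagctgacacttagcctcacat
S100a9, chr3:90695722-90695971, minus strand: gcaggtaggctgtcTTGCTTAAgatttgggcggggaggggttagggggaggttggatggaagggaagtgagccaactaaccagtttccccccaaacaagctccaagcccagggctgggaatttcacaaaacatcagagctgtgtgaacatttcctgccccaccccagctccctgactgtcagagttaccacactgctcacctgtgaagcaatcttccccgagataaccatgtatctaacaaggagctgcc
Mpo, chr11:87793534-87793783, plus strand: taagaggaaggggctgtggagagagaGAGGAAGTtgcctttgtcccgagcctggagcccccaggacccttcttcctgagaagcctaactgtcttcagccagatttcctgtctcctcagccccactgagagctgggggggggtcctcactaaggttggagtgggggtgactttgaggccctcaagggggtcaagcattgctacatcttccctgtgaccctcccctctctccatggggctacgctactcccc
S100a8 had the PU.1 letters beginning 172 bases before the start and a TATA box beginning 30 bases before it. S100a9 had the C/EBP letters beginning 236 bases before the start, and Mpo had the PU.1 letters beginning 224 bases before it. Of the other 4 promoters, Cd68 held the C/EBP letters 43 bases before the start, Cd177 a TATA box 40 bases before it, and C1qb and Lyz2 held none of the motifs. Among 27025 mouse promoters of this length, 2.44% held the PU.1 letters, 9.55% the C/EBP letters and 13% the TATA box. S100a8 and S100a9 lie on the same chromosome within one gene cluster and encode the subunits of calprotectin, a calcium- and zinc-binding protein abundant in the neutrophil cytoplasm.

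Macrophage genes were higher in the newborn type on CPM, and of the 6 only Adgre1 had an adult-type median near the floor of 3 counts. Csf1r, the receptor for the macrophage growth factors CSF1 and IL-34, ran from 8.55 to 15.8 CPM with a median of 13.5 in the 14 newborn-type libraries. In the 8 adult-type libraries it ran from 0.384 to 3.06 CPM with a median of 0.812. The ranges did not overlap, and the log2 ratio of class means was 3.64 on CPM and 1.87 after TMM scaling, where the ranges met by a narrow margin (5.60 to 9.83 against 0.869 to 5.66 TMM-scaled CPM). Adgre1, which encodes an adhesion receptor widely used to mark mouse macrophages, lay between 2.01 and 4.91 CPM (median 3.23) in the newborn type. It lay between 0 and 1.01 CPM (median 0.250) in the adult type, where all 8 libraries together held 51 counts. Cd68, a lysosomal membrane protein of phagocytes, lay between 7.28 and 11.9 CPM (median 9.22) and between 0.291 and 2.99 CPM (median 0.930).

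C1qa and C1qb encode chains of C1q, the recognition part of the classical complement pathway that tissue macrophages secrete. C1qa ranged over 18.4 to 40.8 CPM (median 32.4) in the newborn type and 1.45 to 6.97 CPM (median 3.09) in the adult type. C1qb ranged over 54.0 to 89.2 CPM (median 77.0) and 3.37 to 19.6 CPM (median 6.42). Neither gene overlapped between classes on CPM, and both did after TMM scaling, with log2 ratios of 1.25 for C1qa and 1.15 for C1qb.

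Lyz2, the lysozyme of myeloid cells, was the exception among the 10. It stood at 12.0 to 27.1 CPM (median 19.2) in the newborn type. In the adult type 5 libraries stood at 1.5 to 2.4 CPM and the other 3 at 7.78 (TCDD dam 11), 9.42 (TCDD dam 8) and 16.8 CPM (control dam 7). The highest adult-type value thus lay inside the newborn-type range. Its log2 ratio of 1.78 on CPM was below the median of all symbols, 57.6% of which had a larger one, and after TMM scaling it was -0.0091, so the direction of Lyz2 was not kept between the scales. Without control dam 7 it was 2.29 on CPM and 0.38 after TMM scaling.

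**Figure D1:**
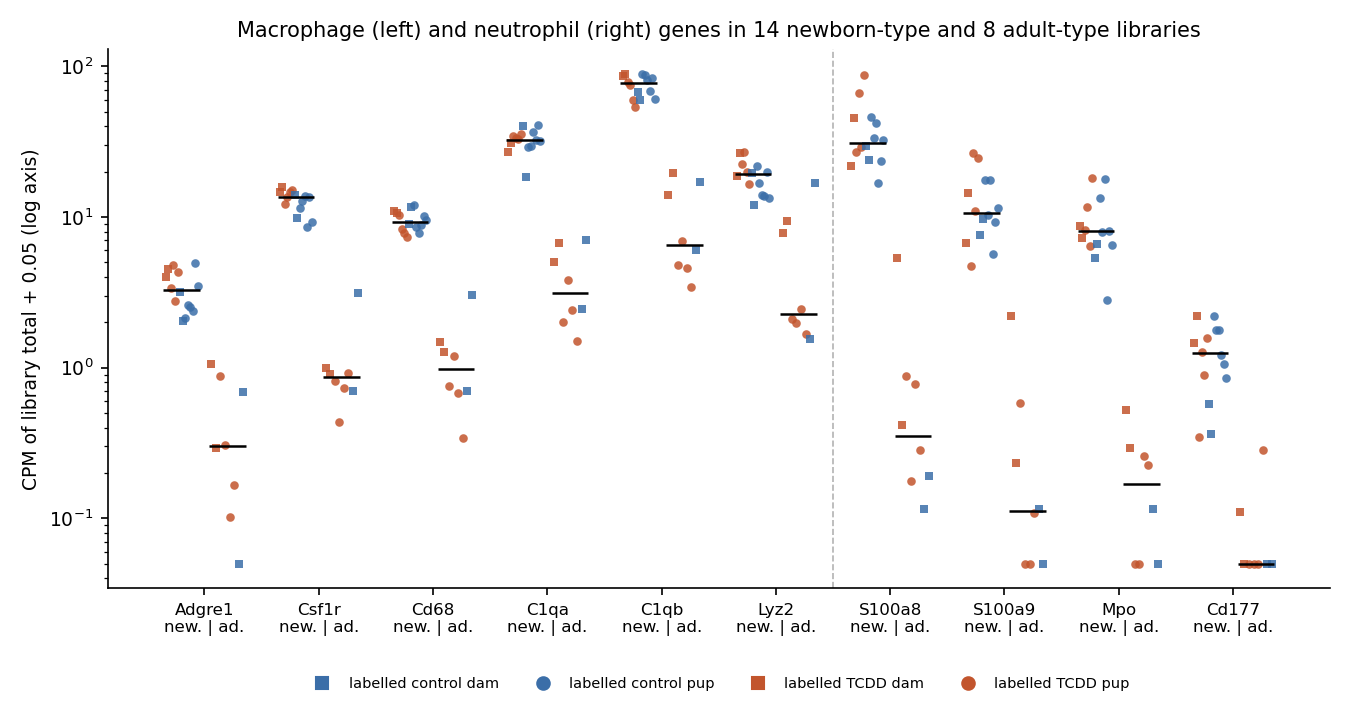
CPM of each gene, summed over its probes, plus an offset of 0.05 so that 0 can be drawn on the log axis, in newborn-type (left of each pair) and adult-type (right) libraries; points are libraries, squares are labelled dam, circles labelled pup, blue control and orange TCDD, and bars are medians. Lyz2 is the only gene whose classes overlap, through control dam 7 at 16.8 CPM, and the neutrophil genes spread most within the newborn type.

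Neutrophil genes showed larger differences between the classes than any macrophage gene described here. S100a8 lay between 16.7 and 87.5 CPM (median 30.8) in the newborn type and between 0.0651 and 5.29 CPM (median 0.300) in the adult type. S100a9 lay between 4.68 and 26.7 CPM (median 10.5) and between 0 and 2.14 CPM (median 0.0616), with 3 adult-type libraries at 0. Their log2 ratios were 5.26 and 5.08 on CPM and 3.35 and 3.23 after TMM scaling. A single library, TCDD dam 11, held 89 of the 132 adult-type counts of S100a8 and 36 of the 50 of S100a9. Every other adult-type library was at or below 0.826 CPM for S100a8 and 0.531 CPM for S100a9. Without TCDD dam 11 the log2 ratios were 6.71 and 6.72 on CPM and 4.87 and 5.08 after TMM scaling. With it the TMM-scaled ranges of both genes overlapped, and without it they did not.

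Mpo, the peroxidase of azurophilic granules, ranged over 2.76 to 18.2 CPM (median 7.97) in the newborn type and 0 to 0.475 CPM (median 0.120) in the adult type. Its 8 adult-type libraries held 20 counts in all, and 3 of them none. The log2 ratio was 5.97 on CPM and 4.02 after TMM scaling, and Mpo was the one member whose classes did not overlap on either scale. Cd177, a surface glycoprotein of neutrophils, ranged over 0.296 to 2.16 CPM (median 1.19) in the newborn type. It was at 0 in 6 of 8 adult-type libraries and reached 0.233 CPM in TCDD male pup 8, so its log2 ratio of 5.05 rests on 5 adult-type counts, 4 of them in that library. Without it a single adult-type count is left, and the log2 ratio of pooled counts was 7.01 (4.52 to 12.32, exact 95% interval, counting error only). The Mpo ratio without TCDD dam 11 was 6.53 on CPM and 4.56 after TMM scaling.

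Read against all symbols, non-overlap on CPM was common, since 9 of 10 members and 73.8% of all symbols showed it in the same direction. Of the members, 5 of 6 macrophage genes and 4 of 4 neutrophil genes had it. After TMM scaling 1 of 10 members and 15.1% of all symbols had it. Without TCDD dam 11 in the adult type 3 of the 4 neutrophil genes had it (S100a8, S100a9 and Mpo). Without control dam 7 so had 2 of the 6 macrophage genes (Csf1r and Cd68), and without TCDD male pup 8 so had Cd177. Each library left out was the highest adult-type library for the genes named. The share of all symbols was not computed without these libraries, so these counts cannot be set beside 15.1%. The size of the ratio placed the members differently: the median log2 ratio was 3.07 for the macrophage genes and 5.17 for the neutrophil genes, beside 1.93 for all symbols. After TMM scaling the medians were 1.28, 3.29 and 0.13. Between 1.54 and 3.55% of all symbols had a larger CPM ratio than a given neutrophil gene, and between 11.6 and 19.3% a larger one than a given macrophage gene other than Lyz2.

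**Figure D2:**
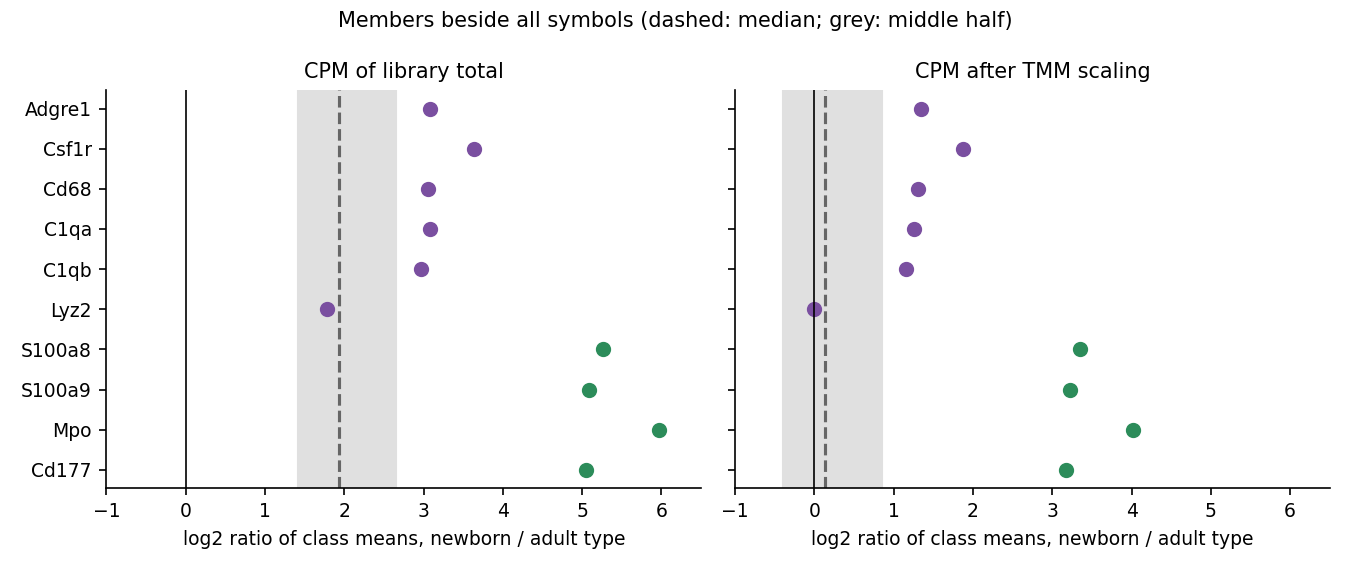
Log2 ratio of class means (newborn over adult type) for each gene on CPM of the library total (left) and after TMM scaling (right); purple points are macrophage genes, green points neutrophil genes, the dashed line is the median of 11366 symbols and the grey band their middle 50%. The 4 neutrophil genes lie above 5 on the left and above 3 on the right, and Lyz2 lies near the median of all symbols on both.

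With the most abundant probe of each gene in place of the sum, 9 members again did not overlap between the classes on CPM. The second Csf1r probe took 2.09% of the newborn-type counts of the gene, the second S100a8 probe 0.143% and the third Mpo probe 3.52%. Genes with more than 1 well-counted probe allowed a check across the 14 newborn-type libraries. The 2 main Mpo probes followed each other with r = 0.91 (permutation p = 2e-05, adjusted over the 3 genes 6e-05) and rho = 0.85 (permutation p = 0.00027, adjusted 0.00081), and r = 0.87 without the 2 libraries farthest from the median. The 2 C1qb probes gave r = 0.79 (permutation p = 0.001, adjusted 0.0015) and rho = 0.78 (permutation p = 0.0017, adjusted 0.00255), and r = 0.87 without 2. The 2 Cd68 probes gave r = 0.12 (permutation p = 0.68, adjusted 0.68) and rho = 0.39 (permutation p = 0.166, adjusted 0.166), and r = 0.30 without 2. The variation of Cd68 among newborn-type libraries was thus not shown to be shared by its own probes.

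Within the newborn type, each neutrophil gene varied more than any of the macrophage genes. The coefficient of variation over the 14 libraries was 15.7 to 30.2% for the 6 macrophage genes and 49.2 to 53.7% for the 4 neutrophil genes. The highest library exceeded the lowest 1.64- to 2.45-fold for macrophage genes and 5.25- to 7.30-fold for neutrophil genes. Counting error alone gives coefficients of variation of 3.00 to 14.6% for the macrophage genes, 4.59 to 9.60% for S100a8, S100a9 and Mpo, and 27.0% for Cd177. TCDD male pup 6 was highest for S100a8 (87.5 CPM) and Mpo (18.2 CPM), and TCDD female pup 11 for S100a9 (26.7 CPM). Control male pup 2 was lowest for S100a8 (16.7 CPM) and Mpo (2.76 CPM), and TCDD female pup 10 for S100a9 (4.68 CPM).

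S100a8 and S100a9 rose and fell together across the newborn-type libraries. On log2(CPM + 1) they gave r = 0.90 (permutation p = 1e-05, the smallest the resampling can give; 0.0009 adjusted over 90 pairs) and rho = 0.89 (permutation p = 4e-05, adjusted 0.0036), and r = 0.83 without the 2 libraries farthest from the S100a8 median. S100a8 with Mpo gave r = 0.77 (permutation p = 0.00153, adjusted 0.0344) and rho = 0.56 (permutation p = 0.0386, adjusted 0.348), and r = 0.68 without the 2 farthest libraries. S100a9 with Mpo gave r = 0.73 (permutation p = 0.00332, adjusted 0.0427) and rho = 0.54 (permutation p = 0.048, adjusted 0.348), and r = 0.63 without 2. The Mpo relations passed by r and not by rank, and with TMM scaling neither passed by r (adjusted permutation p = 0.0557 for both), while S100a8 with S100a9 still did (adjusted permutation p = 0.0009). S100a9 with Mpo was at an adjusted permutation p of 0.0747 by r when control dam 7 was left out of the adult-type pairs, which changes the adjustment alone. All 6 pairs of neutrophil genes were positive, with rho of 0.50 to 0.89. The permutation treats libraries as independent, which those sharing a litter by label need not be. The p values of all 90 pairs are to be read with that limit.

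No pair of macrophage genes passed in the newborn type. Their 15 pairs had rho from -0.56 to 0.53 with a median of 0.21, and none passed after adjustment over 90 pairs by r or by rho. The highest by r were Csf1r with Lyz2, at r = 0.61 (permutation p = 0.0207, adjusted 0.143) and rho = 0.38 (permutation p = 0.181, adjusted 0.68), Adgre1 with Lyz2, at r = 0.56 and rho = 0.52, and Adgre1 with Csf1r, at r = 0.56 and rho = 0.53. The 2 chains of C1q gave r = 0.10 (permutation p = 0.748, adjusted 0.848) and rho = -0.22 (permutation p = 0.454, adjusted 0.733). The lowest pair was Cd68 with C1qa, at r = -0.53 (permutation p = 0.0396, adjusted 0.195) and rho = -0.56 (permutation p = 0.0418, adjusted 0.348), with r = -0.26 without the 2 farthest libraries. The 24 pairs of a macrophage with a neutrophil gene had a median rho of 0.17, and none passed.

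**Figure D3:**
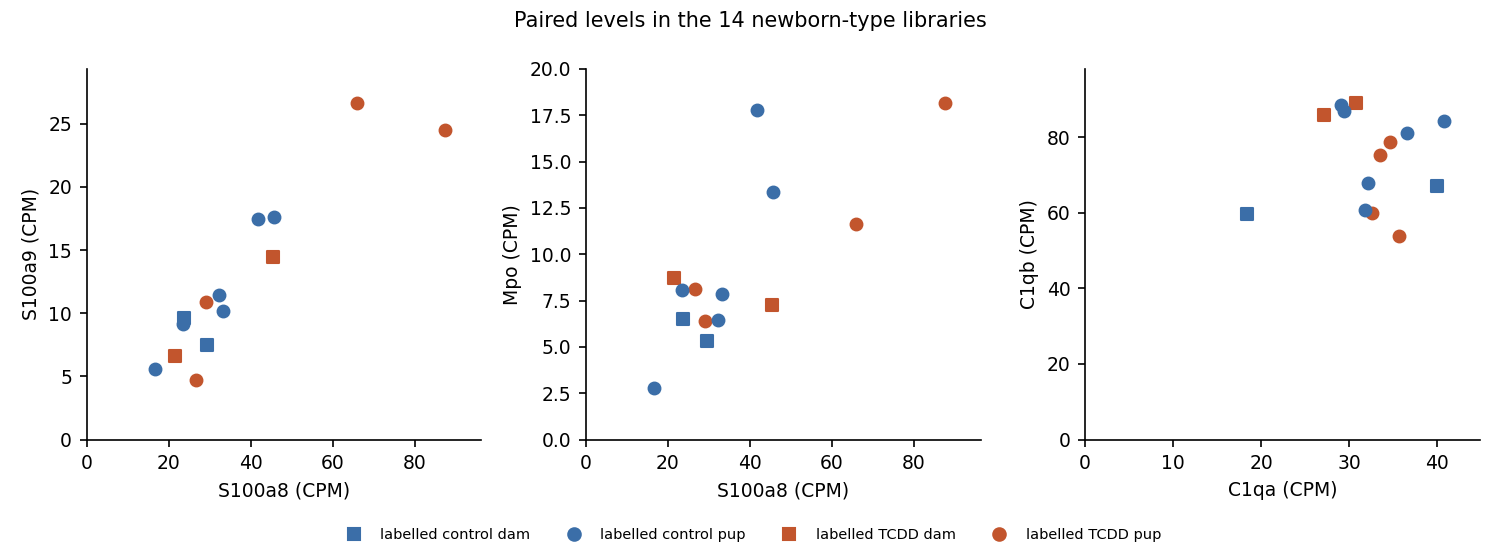
CPM of S100a9 and of Mpo against S100a8 and of C1qb against C1qa in the 14 newborn-type libraries; each point is a library, squares are labelled dam, circles labelled pup, blue control and orange TCDD. S100a8 and S100a9 fall along one line (rho = 0.89), while C1qa and C1qb do not (rho = -0.22).

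Macrophage pairs had a higher median rho in the adult type. The 15 macrophage pairs had rho from 0.31 to 0.95 with a median of 0.64, all positive, and 5 passed by r after adjustment. C1qa with C1qb gave r = 0.98 (exact permutation p = 0.000174, adjusted 0.00781) and rho = 0.95 (exact permutation p = 0.00114, adjusted 0.0513), and r = 0.94 without the 2 farthest libraries. Cd68 with C1qa gave r = 0.89 (exact permutation p = 0.00104, adjusted 0.0313) and rho = 0.90 (exact permutation p = 0.00456, adjusted 0.103), and r = 0.89 without 2. The other 3 pairs passing by r joined Cd68 with C1qb, Cd68 with Lyz2 and C1qa with Lyz2, and none of the 5 passed by rank. With TMM scaling or without control dam 7, C1qa with C1qb alone still passed by r (adjusted permutation p = 0.00781 and 0.0268), the other 4 being at adjusted permutation p of 0.0557 to 0.0694 and of 0.0857 to 0.25. Control dam 7, TCDD dam 8 and TCDD dam 11 were the 3 highest adult-type libraries for each of Cd68, C1qa, C1qb and Lyz2. In that order C1qa stood at 6.97, 6.67 and 4.99 CPM, against 1.45 to 3.77 CPM in the other adult-type libraries. Lyz2 stood at 16.8, 9.42 and 7.78 CPM, against 1.5 to 2.4 CPM. Leaving out the 2 farthest libraries does not remove all of these, so a step between groups of libraries was not told from a graded relation. Whether a relation differed between the classes was not tested.

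Control dam 7 was the highest adult-type library for Csf1r, Cd68, C1qa and Lyz2 and also for the summed levels of the antigen presentation, B cell, T cell and erythroid lists, among others. Without it the macrophage pairs had a median rho of 0.50, and Csf1r with Cd68 went from r = 0.74 to r = -0.06. The neutrophil genes were too sparse in the adult type to follow. S100a8 with S100a9 gave r = 0.95 (exact permutation p = 0.011, adjusted 0.0901) and rho = 0.59 (exact permutation p = 0.139, adjusted 0.567), and r = 0.03 without the 2 farthest libraries, so the relation rests on those. Over both classes 8 of the 90 pairs passed by r and 1 by rho.

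**Figure D4:**
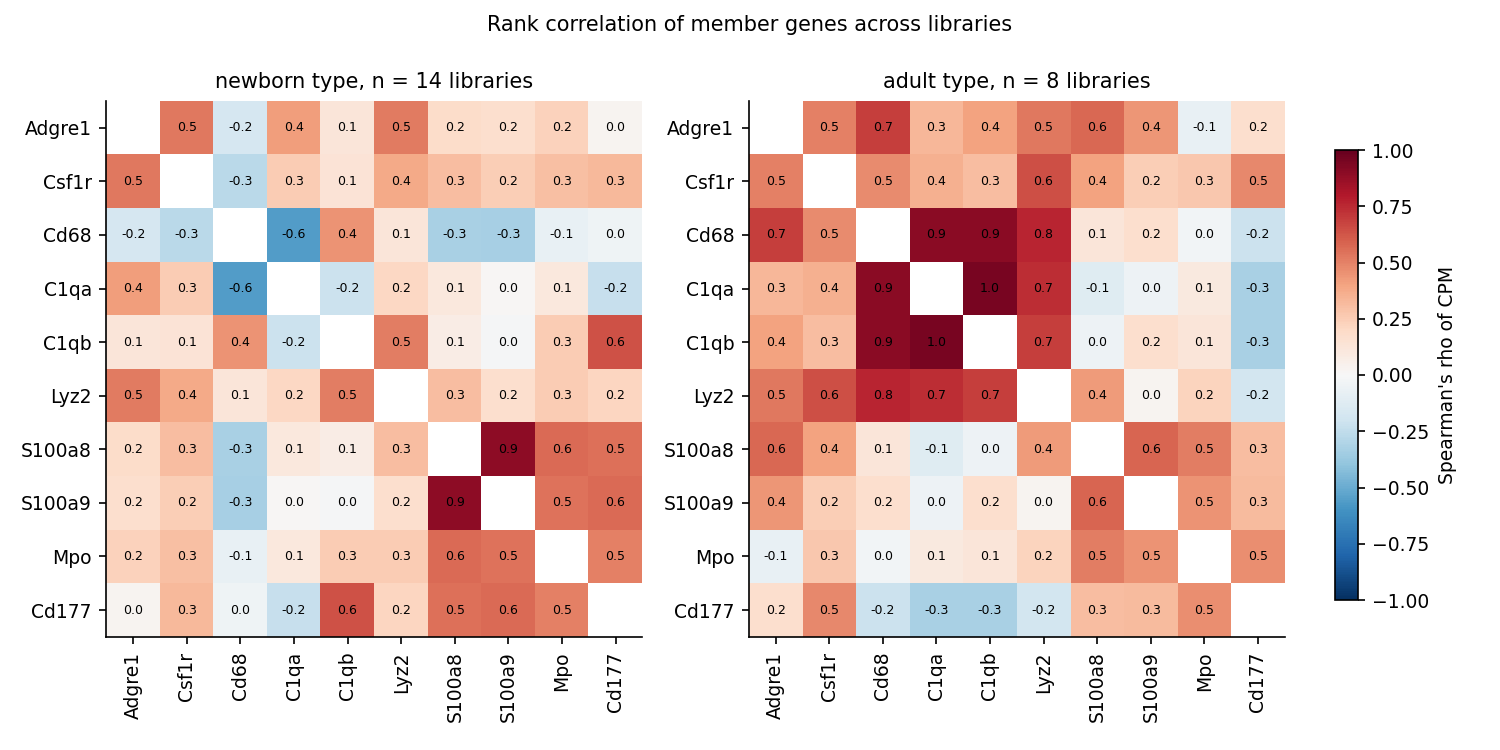
Spearman's rho of CPM for each pair of the 10 genes across 14 newborn-type (left) and 8 adult-type (right) libraries, from -1 (blue) to 1 (red). The block of S100a8, S100a9, Mpo and Cd177 is positive in both types, though these genes are sparse in the adult type. The block of macrophage genes is positive in the adult type and of mixed sign in the newborn type.

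The symbols whose rank pattern was closest to S100a9 among 11167 symbols in the newborn type were F13b (rho 0.97, a subunit of a clotting factor made in liver), Stfa2l1 (0.96, a stefin of neutrophils), Azgp1, BC117090, Thsd1 and 2010005H15Rik, the last 4 at 0.93 to 0.94. S100a8 ranked 14, Cd177 506 and Mpo 629, and the macrophage members ranked from 4304 (Csf1r) to 10897 (Cd68). The median rho of all symbols with S100a9 was 0.17. Neutrophil granule genes other than the members lay near S100a9, with all 8 measured above 1 CPM in the top 25% of symbols, a median rho of 0.79 and Camp (cathelicidin) at rank 11. A list of 12 liver plasma proteins and enzymes, written after F13b had been seen, had 11 genes in the top 25% and a median rho of 0.80.

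The liver list holds F13b, whose likeness to S100a9 prompted it, so its count is no independent support. Its other 11 genes had a median rho of 0.78 with S100a9, 0.67 with S100a8, 0.61 with Mpo and 0.28 with Cd177. The 12 liver genes, among them Alb (albumin), Apoa1 and Ahsg, summed to 466 to 1405 CPM in the newborn type, highest in TCDD male pup 6, and to 3.45 to 18 CPM in the adult type. Alb alone stood at 88.7 to 348 CPM and 0 to 4.36 CPM. All 5 erythroid genes above 1 CPM were also in the top 25% for S100a9, with a median rho of 0.50. The list of red cell genes summed to 127 to 276 CPM in the newborn type and 5.14 to 68.0 CPM in the adult type. The part of liver tissue or blood in the neutrophil levels was not tested.

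Csf1r had no such neighbours. The 6 closest symbols were Tax1bp3 (rho 0.96), Sntb2, Gm16867, Miga2, Idua and Wipi2 (0.89 to 0.91), and the median rho of all symbols with Csf1r was 0.35. Adgre1 ranked 2340 and Cd68 11023 of 11167. Of 23 other macrophage genes above 1 CPM, 6 were in the top 25%, and their median rho of 0.20 was below that of all symbols. In the adult type Csf1r itself had a median of 0.812 CPM and S100a9 of 0.0616 CPM, where ranks rest on a few counts. The closest symbols there were Guf1, mt-Nd6, Sp140, Dmac1, Gadd45a and H2-Q6 for Csf1r and Rnf114, Gm5426, Ap4s1, Bola2, Creg1 and Art3 for S100a9, at rho of 0.88 to 0.95. These correlations describe likeness over 14 or 8 libraries that share litters and composition, and carry no p.

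Other genes of the 2 lineages were counted in the same way, and each count on CPM is to be read beside the 73.8% of all symbols, and each count after TMM scaling beside 15.1%. List genes with a mean under 1 CPM in both classes were left out of these counts and of the median ratios. Of 24 further macrophage and monocyte genes above 1 CPM in a class, 17 were higher in every newborn-type library on CPM and 7 after TMM scaling, with a median log2 ratio of 3.20 on CPM and 1.37 after TMM scaling. Among them were Tyrobp, a signalling adaptor, at medians of 85.7 and 4.26 CPM, Fcgr3, an IgG receptor, at 66.2 and 4.32 CPM, Axl, a receptor for dying cells, at 54.9 and 3.53 CPM, and Ctss, a lysosomal protease, at 23.7 and 3.05 CPM. Of 9 macrophage growth factors and chemoattractants, 8 were higher in every newborn-type library on CPM and 4 after TMM scaling (median log2 ratio 3.44 and 1.62). Both ligands of Csf1r were among them, Il34 at medians of 35.5 and 1.18 CPM and Csf1 at 16.3 and 1.88 CPM. Of the 10 genes of complement other than C1q, 9 were higher without overlap on CPM and 2 after TMM scaling (3.07 and 1.27), including C1s1, the protease that C1q activates, at medians of 193 and 19.6 CPM.

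None of 5 antigen presentation genes was higher without overlap on either scale. Their median log2 ratio of class means was 0.05 on CPM and -1.71 after TMM scaling. The list summed to a median of 44.6 CPM in the newborn type and 23.6 CPM in the adult type, where control dam 7 stood at 198 CPM. H2-Aa, a class II chain, stood at 6.38 to 33.7 CPM (median 18.7) in the newborn type and 5.19 to 76.3 CPM (median 8.80) in the adult type, with control dam 7 highest. Cd74, the invariant chain that pairs with it, stood at 7.57 to 33.2 CPM (median 13.7) and 4.60 to 81.0 CPM (median 7.77).

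Of 16 neutrophil granule genes measured other than the members, 9 were above 1 CPM in a class. Among these 9, 7 were higher in every newborn-type library on CPM and 3 after TMM scaling. Their median log2 ratio was 4.17 on CPM and 2.32 after TMM scaling. The genes left out overlapped between the classes, among them Elane and Prtn3, at newborn-type medians of 0.0689 and 0.206 CPM. Camp stood at medians of 13.6 and 0.0612 CPM, Ltf (lactoferrin) at 5.98 and 0.136 CPM, Lcn2 (lipocalin 2) at 21.7 and 1.29 CPM and Chil3, a chitinase-like protein, at 5.30 and 0.237 CPM. Of 11 mature neutrophil genes measured, 7 were above 1 CPM in a class, and Cxcr2, Csf3r, Il1b and Trem1 were left out, with overlapping ranges. Of the 7, 5 were higher without overlap on CPM and 2 after TMM scaling (3.91 and 2.09). Ly6g, a surface marker of mature mouse neutrophils, was not among them, at 3.76 to 8.45 CPM and 0.731 to 4.76 CPM. Hp, haptoglobin, which hepatocytes also make, was at medians of 50.9 and 0.746 CPM. Of 5 genes for receptors and signalling of S100a8 and S100a9, 4 were higher without overlap on CPM and 0 after TMM scaling, with a median log2 ratio of 1.85 and 0.06, close to that of all symbols, and Tlr4 stood at medians of 12.4 and 1.38 CPM.

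Other blood cells were measured in the same way. Of 8 mast cell, basophil and eosinophil genes measured, 4 were above 1 CPM in a class, and these were higher without overlap on both scales. They had the largest median ratio of these blood cell lists (6.49 and 4.70), with Tpsb2, a tryptase, at 13.7 to 35.2 CPM and 0 to 0.594 CPM. The genes left out, Fcer1a, Mcpt8, Epx and Prg2, overlapped between the classes. Of 6 erythroid genes 3 were higher without overlap on CPM and 0 after TMM scaling (2.96 and 1.26). Pf4, the one platelet gene above 1 CPM, was higher without overlap on both (3.53 and 1.69). None of 4 B cell genes (0.36 and -1.34) and none of 2 T cell genes (1.30 and -0.43) was so on either scale. B cell genes summed to 4.45 to 19.5 CPM (median 9.32) in the newborn type and 0.157 to 43.6 CPM (median 1.73) in the adult type, where control dam 7 was again highest. All 8 cell division genes (2.94 and 1.17) and all 3 genes above 1 CPM of the aryl hydrocarbon receptor battery (2.72 and 0.77) were higher without overlap on CPM, and 0 of either list after TMM scaling. The battery held 7 measured genes, and those left out overlapped between the classes. Of them Cyp1a1 alone was lower in the newborn type on CPM, at a log2 ratio of -1.44. Of 12 liver genes all were higher without overlap on CPM and 9 after TMM scaling (7.69 and 5.87). Of 8 pancreas genes 4 and 2 were higher, with 3 and 4 others lower. The class rule used Afp, a plasma protein gene, and Pnlip, a pancreas gene, so the counts of these 2 lists are not independent of it.

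The design asks how pups differ from dams and how TCDD changed dams, daughters and sons. With the libraries as labelled no member passed in any of these comparisons in edgeR, and 1 probe of C1qb passed in DESeq2 in the male pups. With all 22 libraries, 0 of 18539 probes passed between pups and dams (0% of those tested, 516 at an unadjusted p under 0.05, edgeR's quasi-likelihood test with Benjamini-Hochberg adjustment), and 0 of 13 member probes. The smallest member p values belonged to Lyz2, at a log2 difference of pups minus dams of -0.71 ± 0.296 (SE, adjusted p = 0.995 in edgeR), and Cd177, at 0.76 ± 0.611 (adjusted p = 0.995 in edgeR). Each of the 4 label groups of 4 libraries mixed both classes, and the 6 control pups were all newborn type.

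Leaving out the 8 libraries that went against their stage label left 10 pup and 4 dam libraries, all of the matching class. Then 25.0% of 20038 probes passed as higher in pups and 18.6% as lower on the TMM scale, and of 14 member probes 9 passed as higher and 1 as lower. These libraries are a subset of the 2 classes, with only the dam-labelled part of the adult type. This is thus the class contrast again on fewer libraries, and the member values are a description that supports nothing further. Fitted log2 differences were 4.43 ± 0.539 (SE) for S100a8, 4.24 ± 0.725 for S100a9 and 4.14 ± 0.551 for the main Mpo probe. Cd177 held 0, 0, 0 and 1 counts in the 4 dams, and a further Mpo probe at most 2 counts in any adult-type library, so their fitted values are not given. Macrophage probes differed less, from Csf1r at 1.42 ± 0.248 and C1qa at 0.84 ± 0.17 to Lyz2, which was lower in pups at -0.81 ± 0.292. The Lyz2 value rests on the dams kept. On TMM-scaled CPM, control dam 7 stood at 31.2, TCDD dam 8 at 22.9 and TCDD dam 11 at 18.5. Control dam 5 stood at 3.52, and the adult-type libraries labelled pup, left out here, at 3.48 to 6.62. With all adult-type libraries the TMM-scaled log2 ratio of class means was -0.0091. Adgre1, 1 of 2 C1qb probes, 1 of 2 Cd68 probes and the weakest Mpo probe did not pass.

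In edgeR with all libraries as labelled, TCDD and control labels gave no member a difference past the threshold. In dams 0 of 15594 probes passed (0%, 150 at an unadjusted p under 0.05) and 0 of 12 member probes, the smallest p values being those of C1qb at 0.53 ± 0.273 (TCDD minus control, log2, SE) and Adgre1 at 0.77 ± 0.732, both at an adjusted p of 1 in edgeR. In female pups 0 of 17513 probes passed (0%, 299 unadjusted) and 0 of 13 member probes, with Cd177 at -1.65 ± 0.685 and C1qb at -0.71 ± 0.386 (adjusted p = 0.996 in edgeR). In male pups 0 of 16176 probes passed (0%, 2703 unadjusted) and 0 of 13 member probes, with C1qb at -1.46 ± 0.363 and Cd68 at -1.23 ± 0.438 (adjusted p = 0.273 in edgeR). All 13 member probes were below 0 there. Among the male pups every control library was newborn type and 3 of 4 TCDD libraries adult type, so chemical and class cannot be told apart in that group. Leaving out TCDD male pup 6, the one newborn-type TCDD son, made 6451 of 15379 probes pass in edgeR, 2865 higher and 3586 lower. Among them were 12 member probes, all lower. This fit sets newborn-type controls against adult-type TCDD libraries, so it is the class contrast again. S100a9 held 0, 1 and 0 counts in the TCDD sons left, so its fitted value is not given. DESeq2 passed 476 of 27288 probes with all 7 male pup libraries, 392 higher and 84 lower. Among the lower ones was 1 probe of C1qb (-1.49 ± 0.414, adjusted p = 0.0169 in DESeq2).

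Within the newborn type the chemical label could be read without a change of class, in 8 control and 6 TCDD libraries. Again 0 of 17109 probes passed (0%, 554 unadjusted) and 0 of 13 member probes, with log2 differences of TCDD minus control between -0.32 and 0.40. Lyz2 had the smallest p, at 0.27 ± 0.127 (SE, adjusted p = 1 in edgeR). Its levels were 12.0 to 21.9 CPM (median 15.3) with the control label and 16.5 to 27.1 CPM (median 21.0) with the TCDD label, and the groups overlapped. A single probe of Cd68 followed at -0.32 ± 0.184 (adjusted p = 1 in edgeR), while the summed probes had medians of 9.22 CPM with the control label and 9.29 CPM with the TCDD label. S100a8 stood at 16.7 to 45.7 CPM (median 30.8) with the control label and 21.6 to 87.5 CPM (median 37.2) with the TCDD label. None of the 10 members separated the labels without overlap. In the adult type only 2 libraries carried the control label, and no test was made there.

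**Figure D5:**
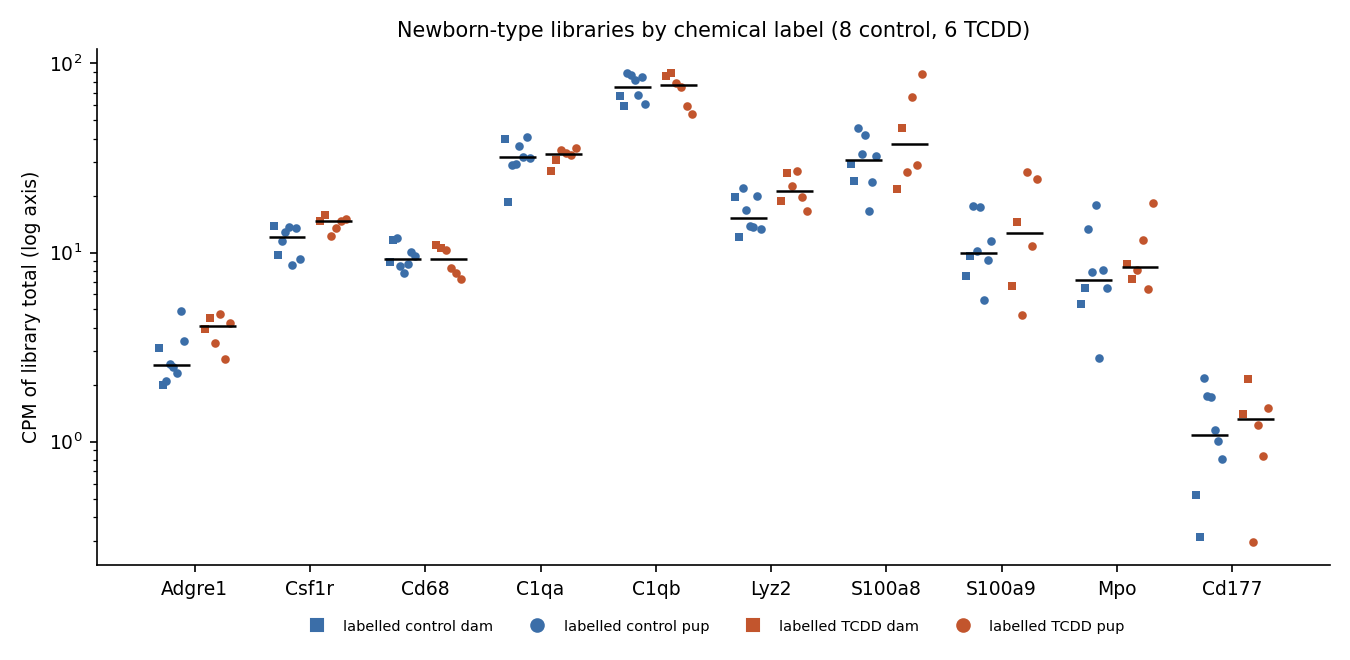
CPM of each gene (log axis) in the newborn-type libraries by chemical label, 8 control (blue) and 6 TCDD (orange); points are libraries, squares labelled dam, circles labelled pup, and bars are medians. The groups overlap for all 10 genes, Lyz2 having medians of 15.3 and 21.0 CPM.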

How the data were processed

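The authors deposited raw counts per probe for 22 libraries, whole numbers with no normalization per the file headers and values. The submitters' processing notes name bcl2fastq 2.17.1.14 for read conversion. An aligner, a counter and a build were not given in the sources used here. The labels describe no molecular identifiers, and a count is therefore a read. Replicates are separate animals per the labels, and libraries of a group always differed by more than sampling noise, the closest at a chi-square of 7.47 per degree of freedom.

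Counts were summed over the probes of a symbol for CPM. Tests per probe used edgeR 4.0.16 in R 4.3.3 (filterByExpr, TMM, glmQLFit, glmQLFTest, Benjamini-Hochberg over all probes tested, threshold 0.05), with DESeq2 1.42.0 as an alternative; the functions were tested on simulated data. The 90 member pairs were tested by permutation on log2(CPM + 1), exact for 8 libraries and with 100000 resamples for 14. The 10 members, 15 gene lists and the rules were chosen with earlier results of these data known; a further list, of liver genes, was added after the neighbours of S100a9 had been seen. Named genes were all members, the 2 members with the smallest p per comparison, up to 4 of the most abundant genes per list and the 6 nearest symbols of Csf1r and S100a9. Label numbers mark shared litters; of 21 same-litter pairs, 5 deviated together with a correlation over 0.1 (median -0.035, range -0.873 to 0.865). Among TCDD pairs, 4 of 1 class had 0.611 to 0.865 and 8 of different classes -0.873 to -0.561, so these values follow class and say little of litter. The 9 control pairs lay between -0.0613 and 0.253. The pairing was used only for pups against dams.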

Additional observations from a re-analysis of the deposited data

Results flagged for a closer look

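Within label groups of 4 and the 8 adult-type libraries, 50 sets of member values were examined for a library far from the rest. The rule flags about 1 in 20 by chance when sets are independent and values normal. These sets shared libraries and each label group of 4 mixed the classes, so that rate does not apply here. In all, 16 sets stood out. Of these, 10 were TCDD male pup 6 among the TCDD male pups, the one newborn-type library of that group, at 4.24 CPM for Adgre1, 15.0 for Csf1r, 7.28 for Cd68, 35.6 for C1qa, 54.0 for C1qb, 16.5 for Lyz2, 87.5 for S100a8, 24.5 for S100a9, 18.2 for Mpo and 1.52 for Cd177. The other 3 libraries reached at most 6.85 CPM for any member. TCDD female pup 6, the one adult-type library of its group, stood low for C1qa at 1.95 CPM, against 32.6 to 34.6 CPM.

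In the adult type, control dam 7 stood high for Csf1r at 3.06 CPM (others 0.384 to 0.950) and Cd68 at 2.99 CPM (others 0.291 to 1.43). TCDD dam 11 stood high for S100a8 at 5.29 CPM (others up to 0.826) and S100a9 at 2.14 CPM (others up to 0.531). TCDD male pup 8 held 0.233 CPM of Cd177, from 4 counts.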

How the results depend on the processing

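Scaling moved the class description most. After TMM scaling 1 member rather than 9 was without overlap, beside 15.1% of symbols (88.4% on CPM with a minimum of 10), all 10 log2 ratios were lower, and Lyz2 went to -0.0091. Leaving TCDD dam 11 out of the adult type, an alternative added after seeing the data like those without control dam 7 or TCDD male pup 8, raised S100a8 to 6.71 and S100a9 to 6.72. Pairs passing by r fell from 8 to 2 with TMM scaling (S100a8 with S100a9, and C1qa with C1qb) and to 3 without control dam 7 (these and S100a8 with Mpo).

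For pups against dams, the fit with the litter as replicate block passed 0 probes and 0 member probes, DESeq2 passed 18, no low-count filter 1, and the libraries with their stage label alone 8747, with 10 member probes. Leaving out 1 library passed 0 to 1 probes (1 without TCDD dam 10 or TCDD dam 6) and 0 to 0 member probes. In male pups DESeq2 passed 476 probes and 1 member probe, the libraries with their stage label 3 probes and 1 member probe (S100a8, 1.61, with a single TCDD library that is assumed to vary like the controls), and leaving out 1 library 0 to 6451 probes and 0 to 12 member probes. In dams, female pups and newborn-type libraries each alternative run passed 0 probes. The causes were not tested, apart from the class mix given with the male pups. Counts of 0 to 36 per library limit S100a9, Mpo and Cd177 in the adult type.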
